A study of Homo sapiens with 6 samples.

Results

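Alternative first exons are transcript starts that are spliced to the same second exon, so several 5′ splice sites compete for 1 shared 3′ splice site, or acceptor. They were identified here from splice junction counts in K562 cells, an established line from a human chronic myeloid leukaemia. A first-exon 5′ splice site was the start of an annotated junction with no annotated acceptor on its strand within 2000 nt upstream. Acceptors were kept where such sites more than 500 nt apart joined them, with at least 20 first-exon reads in each of the 6 libraries and at least 10 pooled reads on each of 2 first exons. Of 195842 acceptors of annotated junctions, 547 met these conditions. In all 1883 annotated first-exon junctions entered them. Of these, 1412 had at least 10 pooled reads, 471 had fewer and 130 of the 471 had no unique read. The acceptors were chosen by read counts pooled over both genotypes, so the number and depth of the first exons are a description. The contrast itself was not used in the choice, but the pooled minimum can be met through 1 genotype alone, and such cases are named beside their values.

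The libraries were poly(A)+ RNA of K562 cells in both groups. In 3 libraries the cells carried a wild-type U2AF1 knock-in, and in 3 the U2AF1 genotype was S34F, a serine to phenylalanine substitution. The labels do not say whether the libraries of a group came from separate cultures or clones, so p-values measure only the spread between these samples. Unique spliced reads per library were 25429944, 24930980 and 19380519 for the wild-type knock-in, and for S34F they were 23462995, 18074706 and 39279169. The median number of first-exon reads per kept acceptor ranged from 82 in S34F library 2 to 200 in S34F library 3. Genotype, cell identity and gene levels could not be checked in junction tables without an annotation of their build, and the erythroid, alternative-promoter and splicing-factor gene lists and the cell type markers were not analysed here.

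A gene with several promoters starts transcription at more than one place, and each start brings its own first exon. The exons that follow are often shared, so the choice of first exon can change the start of the message or of the protein while the rest stays the same. The reads counted at a first-exon junction depend both on how often that start is used and on how its 5′ splice site is spliced, and junction counts do not separate these. U2AF1 is the subunit of the U2AF complex that contacts the AG at the 3′ end of an intron, and S34F is a recurrent substitution in myeloid neoplasms that alters which bases next to that AG are preferred. Alternative first exons of 1 acceptor differ in the 5′ splice site, while the AG is the same for all of them. The comparison below asks whether the shares of first exons at such an acceptor differ between S34F and wild-type cells.

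Most of these acceptors had few first exons. There were 2 first exons with at least 10 pooled reads at 335 acceptors, 3 at 140, 4 at 50, 5 at 13, 6 at 6 and 7 at 3. The outermost first-exon sites of an acceptor lay 502 to 136659 nt apart, with a median of 1168 nt. They were more than 10000 nt apart at 104 acceptors and more than 100000 nt apart at 5. At 177 acceptors some pair of sites also lay within 500 nt of each other. Each 5′ splice site was counted as 1 first exon, so alternative 5′ splice sites of a single exon were counted apart. Introns that start at these first exons had a median of 3407 nt and a range of 74 to 162025 nt. The median was 1387 nt over 135246 other annotated junctions, those with at least 10 pooled reads that start at no first-exon site. First-exon junctions outside the 547 acceptors are not in that set. The length and motif values below therefore set first introns beside later ones, and are not shown to be particular to the kept acceptors. Of the 1412 first-exon junctions, 1376 were GT-AG and 36, or 2.55%, were GC-AG, against 1.06% GC-AG among the other junctions. No member was an AT-AC intron, a class that made up 0.116% of the other junctions. The acceptors were split evenly by strand, with 272 on the plus and 275 on the minus strand. At 392 of the 547 acceptors no read came from any other annotated junction, and at 9 the first exons supplied under 50% of the annotated reads.

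The members near the limits of the rule were thinly covered. Exactly 20 reads in the lowest library were found at 8 acceptors, and 10 acceptors just outside had 19. The second first exon had exactly 10 pooled reads at 16 acceptors, while 26 outside had 9. The smallest distance inside was 502 nt and the largest outside was 500 nt. The nearest annotated acceptor upstream of a site was 2007 nt away inside the rule and 1999 nt away outside, with a median of 41748 nt among members.

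The name first exon rests on the annotation, and the reads did not bear it out at every site. Of the 1396 distinct sites, 893 had no read of an unannotated junction ending within 2000 nt upstream. At 156 sites, or 11.2%, such reads amounted to at least 10% of the reads leaving the site. At 259 sites these reads came from another first exon of the same acceptor, so that the site closed an internal exon in those reads. Junctions of that kind carried 14.0 to 17.6 reads per 1000000 unique spliced reads (CPM) in the wild-type libraries against 15.7 to 20.5 in the S34F libraries, ranges that overlap. At 141 acceptors at least 1 first-exon site had unannotated upstream reads at 10% or more of the reads leaving it, and at the other 406 every site was below that.

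One first exon dominated most acceptors in both genotypes. The leading first exon held a median of 91.7% of the first-exon reads in wild type and 91.9% in S34F. It held over 90% at 303 acceptors in wild type and at 301 in S34F, and over 50% at 521 and 526. The mean share of the leading exon over the 547 acceptors was 84.6%, 85.3% and 84.9% in the wild-type libraries against 85.1%, 84.8% and 85.0% in the S34F libraries. These libraries interleave, so the strength of dominance did not separate the genotypes. A share over 99% was found at 76, 98 and 87 acceptors in the wild-type libraries and at 68, 95 and 59 in the S34F libraries, again with overlap. In wild type the leader was the first exon farthest from the acceptor at 294 acceptors, the nearest at 158 and one between them at 95. The mean share of the farthest exon was 51.7%, 51.8% and 51.4% in wild type against 51.4%, 52.1% and 51.6% in S34F, so no general move toward farther or nearer starts was seen.

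**Figure D1:**
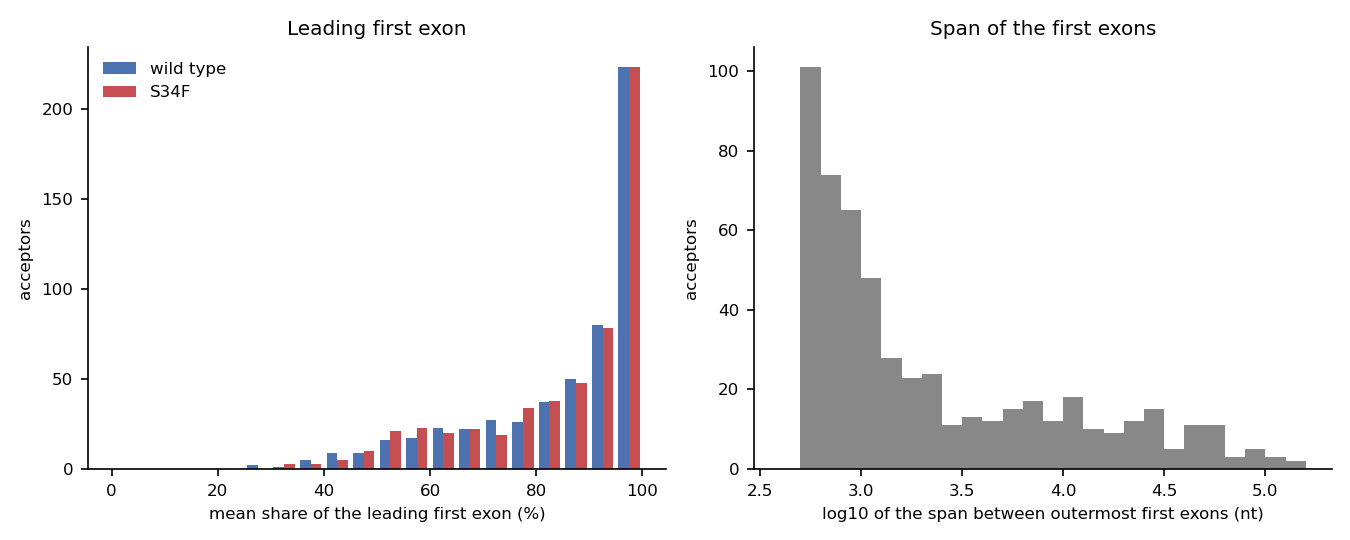
Share of reads held by the leading first exon and distance between the outermost first exons at the 547 acceptors, with the number of acceptors on the vertical axes. Most acceptors have a leading exon above 90% in both genotypes, and the distance, on a log axis, has its median at 1168 nt.

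The leading first exon was the same in both genotypes at 533 acceptors and differed by group means at 14. At 0 of those 14 did the change of leader hold in every library. The leader's share was lower in S34F at 295 acceptors and higher at 252, with a median difference of -0.10 percentage points.

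The shares were then compared between S34F and wild type. A comparison set 1 first exon's reads against those of the other first exons of its acceptor. At the 211 acceptors where only 2 first-exon sites had any read, the farther one was tested, since the nearer is its mirror image. Where a further site had reads, each first exon with at least 10 pooled reads was tested, also where only 2 reached that minimum. This gave 1201 comparisons, and those of 1 acceptor are not independent. They were fitted together with 7650 other choices, in which 5′ splice sites that were not first exons and lay over 500 nt apart competed for an acceptor, under the same read minimums. The test was edgeR's quasi-likelihood test with Benjamini-Hochberg adjustment over all 8851, and a call needed an adjusted p under 0.05 and a difference of at least 10 percentage points.

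Only 2 of the 1201 first-exon comparisons were called, 0.167%, against 2.87% of the whole table and 3.29% of the other 5′ splice site choices. The first is a first exon on chromosome X that was higher in S34F, and the second a first exon on chromosome 1 that was lower. The second lies at an acceptor that met the read minimum only through S34F reads. In simulated counts the test found 4% of changes of 1 log2 odds and 46% of changes of 2. A share without a call is thus not shown to be steady. With no minimum difference 10 comparisons at 8 acceptors had an adjusted p under 0.05, 0.833%, against 5.38% of the whole table and 6.09% of the other choices. That number was 1 with DESeq2, 0 with limma, 1 with first exons fitted alone and 2 with sites over 2000 nt apart. Of the 10, 3 had under 5 reads on a side in 1 genotype. Among the 1087 comparisons with at least 5 reads on both sides in each genotype, 7 (0.644%) had an adjusted p under 0.05 and 1 was called. Of the 6768 other choices under that condition, 411 (6.07%) had an adjusted p under 0.05 and 244 were called. An unadjusted p under 0.05 was found for 111 comparisons at 78 acceptors, 9.24%, against 21.6% of the whole table and 23.6% of the other choices. The 3 S34F libraries did not overlap the 3 wild-type libraries in 160 comparisons, 13.3%, against 25.4% of the whole table and 27.3% of the other choices. All 4 shares of the 1201 comparisons were lower for first exons than for the other choices, although this gap itself was not tested, since neighbouring comparisons share reads.

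The median difference was below the median SD between single libraries, a spread that is wider than the error of a group mean. The median absolute difference was 1.47 percentage points, and the median SD was 1.99 points in wild type and 2.15 points in S34F (n = 3 each). For the other choices the median absolute difference was 2.06 points, with median SDs of 2.04 and 1.88 points. Differences under 5 points made up 82.6% of the first-exon comparisons and 73.6% of the others. A difference of at least 10 points was found in 61 first-exon comparisons, 5.08%, against 10.6% of the whole table. First-exon differences ran from -22.0 to 22.4 points, and those of the other choices from -38.3 to 40.3.

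**Figure D2:**
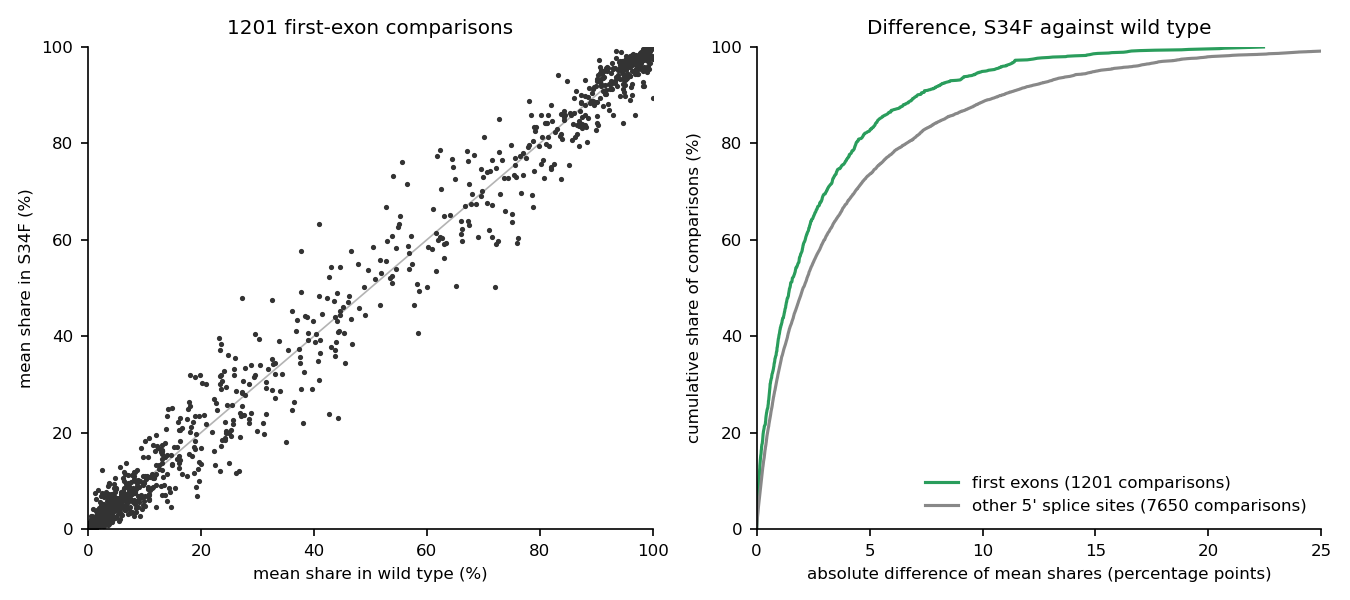
Group mean shares of the 1201 first-exon comparisons in wild type and S34F, in percent, and the cumulative distribution of the absolute difference between groups, in percentage points, for first exons and for the other 5′ splice site choices. The first-exon points lie along the diagonal, and 82.6% differ by under 5 points.

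The lower rate was present at each read depth. With 20 to 49 reads in the lowest library, the groups did not overlap in 48 of 423 first-exon comparisons (11.3%) and in 24.4% of the other choices. With at least 50 and under 200 reads the shares were 14.4% of 480 and 28.5%. With 200 or more reads they were 14.4% of 298 and 28.9%. Where both sides held over 20% of the reads, so that a shift has the most room, 37 of 263 first-exon comparisons (14.1%) did not overlap, against 36.9% of the other choices.

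Distance between the starts was set beside the tests in the same way. An unadjusted p under 0.05 was found for 8.48% of 755 comparisons at acceptors whose first exons spanned up to 2000 nt, for 9.60% of 302 above 2000 and up to 20000 nt, and for 12.5% of 144 above that. Of the 10 comparisons with an adjusted p under 0.05, 8 fell in the shortest class, none in the middle one and 2 in the longest. The farthest first exon was higher in S34F at 286 of all 547 acceptors, 52.3%, and at 26 of the 60 in which it had an unadjusted p under 0.05, 43.3%.

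The called rise was at the acceptor at chrX:54835735 on the plus strand (hg19), which has 3 first exons. The farthest of them, joined by the intron chrX:54834236-54835735 of 1500 nt, held 39.2%, 42.6% and 31.5% of the first-exon reads in the wild-type libraries against 60.2%, 57.5% and 55.1% in the S34F libraries. Every S34F library was above every wild-type library. The group means were 37.8% ± 5.66 and 57.6% ± 2.54 (SD, n = 3), a difference of 19.8 percentage points and a log2 odds change of 1.16 with a standard error of 0.32 (edgeR adjusted p = 0.0303). The exon starting its intron at 54834867 went from 39.7% ± 3.02 to 29.0% ± 6.35, and the one at 54835657 from 22.5% ± 5.75 to 13.4% ± 4.25, and neither of these passed the adjusted test. The call was lost without wild-type library 3 (adjusted p = 0.100) and without S34F library 1 (0.105), 2 (0.0890) or 3 (0.116). It was also lost with DESeq2 (0.137) and limma (0.186).

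In CPM, that first exon rose, while neither of the other 2 first exons passed the test. It had 5.15, 5.62 and 3.87 CPM in wild type against 18.7, 11.3 and 11.9 in S34F. The log2 fold change was 1.49 with a standard error of 0.22 (edgeR adjusted p = 0.0290 over 112956 annotated junctions). The exon at 54834867 had 5.11 ± 0.45 and 6.73 ± 0.30 CPM (log2 fold change 0.38, adjusted p = 0.371), with every S34F library above every wild-type library, and the exon at 54835657 had 2.88 ± 0.62 and 3.39 ± 1.96 (log2 fold change 0.21, adjusted p = 0.826). The acceptor as a whole went from 13.1, 13.2 and 12.3 to 31.1, 19.6 and 21.5 CPM. The call on abundance was lost without wild-type library 2 (adjusted p = 0.167) or 3 (0.132) and without S34F library 1 (0.0728) or 3 (0.0707).

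The called fall was on chromosome 1, at the acceptor at chr1:12640695 on the minus strand. The farther first exon, with the intron chr1:12640695-12677158 of 36464 nt, held 100%, 100% and 100% of the reads in wild type against 96.2%, 87.1% and 84.9% in S34F. The remainder belonged to a first exon at 12676563, which had 0 of 223 wild-type reads and 3 of 78, 4 of 31 and 16 of 106 reads in the S34F libraries. All 23 reads of that exon came from S34F, so it reached the minimum of 10 pooled reads through the genotype in which it is higher, and the test is not independent of that choice. A count of 0 in 223 reads allows a share of up to 1.35%, counting error only. The S34F mean of the farther exon was 89.4% ± 5.96 (SD, n = 3), 10.6 percentage points below wild type (edgeR adjusted p = 0.00563). Its fitted log2 odds change of -6.24 (standard error 1.27) is set against 0 reads and is no bound. In CPM the nearer exon reached only 0.128, 0.221 and 0.407 in S34F, and the farther one had 2.40, 4.05 and 3.15 in wild type against 3.20, 1.49 and 2.29 in S34F. Without S34F library 2 the adjusted p was 0.0316 and the difference fell under 10 points, which ended the call. Without S34F library 3 the nearer exon had under 10 pooled reads and no comparison was made. The adjusted p was 0.0953 with limma and 0.133 with multi-mapped reads added.

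**Figure D3:**
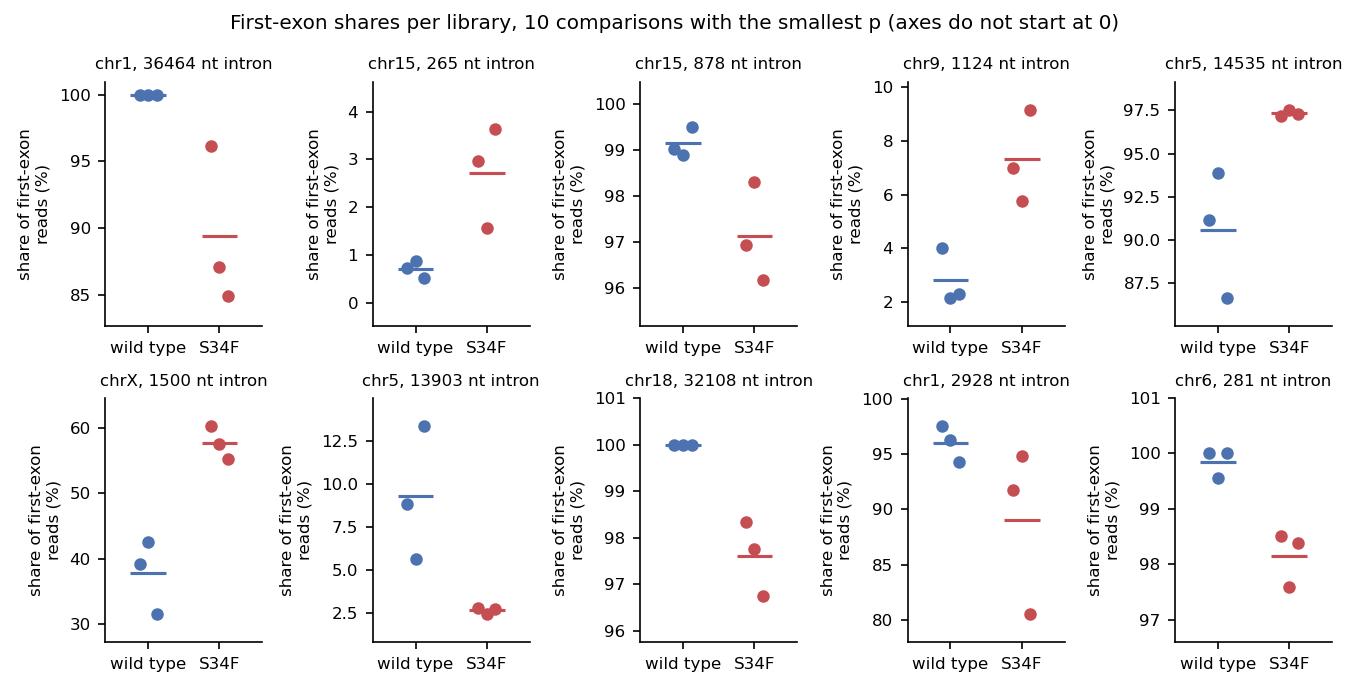
Share of first-exon reads, in percent, in each of the 6 libraries for the comparisons with the smallest p. Points are libraries and bars are group means. The 2 called comparisons are in the chromosome X panel and the chromosome 1 panel with the 36464 nt intron.

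The other 8 comparisons with an adjusted p under 0.05 moved by under 10 points. None of the 8 had an adjusted p under 0.05 with DESeq2 (0.114 to 0.297), with limma (0.0953 to 0.279) or with first exons fitted alone (0.133 to 0.322). When all reads leaving each site were counted, 2 of the 8 kept an edgeR adjusted p under 0.05 (0.0404 to 0.292). Most concern a first exon that supplies a few percent of its acceptor's reads. At chr15:63448721 on the minus strand the nearer first exon, with the intron chr15:63448721-63448985 of 265 nt, held 0.728%, 0.881% and 0.513% in wild type against 2.96%, 1.56% and 3.63% in S34F. All S34F libraries were higher (log2 odds change 1.92, standard error 0.46, edgeR adjusted p = 0.0144). The leading exon at 63449598 went from 99.1% ± 0.31 to 97.1% ± 1.08 (adjusted p = 0.0243), which restates the same reads from the other side. The adjusted p of the nearer exon was 0.0692 without S34F library 1 and 0.122 without S34F library 3. Reads of unannotated junctions that end just upstream of the nearer exon came to 14.1% of the reads leaving it. The main one runs from the leading exon to 63449173 and bounds an internal exon of 187 nt. It had 1, 2 and 2 reads in wild type against 3, 0 and 4 in S34F.

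The acceptor at chr5:151166132 on the plus strand moved toward its leading exon. The farther exon, with an intron of 14535 nt from 151151598, held 91.2%, 93.9% and 86.7% in wild type against 97.2%, 97.5% and 97.3% in S34F (log2 odds change 1.81, standard error 0.49, edgeR adjusted p = 0.0275). The nearer exon, with an intron of 13903 nt from 151152230, went from 9.28% ± 3.85 to 2.67% ± 0.19 (adjusted p = 0.0328), which restates nearly the same reads from the other side. In CPM the nearer exon had 0.629, 0.521 and 0.826 in wild type against 0.213, 0.221 and 0.280 in S34F, with no overlap. The adjusted p of the farther exon was 0.0969 without wild-type library 3 and 0.0816, 0.0883 and 0.148 without S34F library 1, 2 or 3.

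On chromosome 9 the moving exon did not behave only as a first exon. At chr9:123637035 on the minus strand the exon with the intron chr9:123637035-123638158 of 1124 nt held 4.01%, 2.16% and 2.30% in wild type against 7.0%, 5.78% and 9.16% in S34F (log2 odds change 1.42, standard error 0.38, edgeR adjusted p = 0.0251). Reads of unannotated junctions that end just upstream of it came to 47.6% of the reads leaving it. The main one runs from the leading first exon at 123639368 to 123638281 and bounds an internal exon of 122 nt, with 12, 7 and 4 reads in wild type against 12, 11 and 34 in S34F. Another, to 123638934, had 0, 1 and 0 reads in wild type against 7, 7 and 12 in S34F. The leading exon held 95.0% ± 0.45 in wild type and 90.6% ± 1.37 in S34F (adjusted p = 0.0768). How many of the counted reads came from internal use was not tested. The adjusted p of the moving exon was 0.102 and 0.0621 without wild-type library 2 or 3, and 0.0779 and 0.167 without S34F library 1 or 3.

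The remaining 3 comparisons were closest to the threshold. At chr18:43620014 on the minus strand the exon with an intron of 32108 nt held 100% in every wild-type library and 98.3%, 97.8% and 96.8% in S34F (edgeR adjusted p = 0.0405). Its alternative at 43620125 had 0 of 317 wild-type reads, which allows a share of up to 0.946%. All 15 reads of that alternative came from S34F, so it met the pooled minimum only through that genotype. The leading exon's adjusted p was 0.0571, 0.131 and 0.0819 without wild-type library 1, 2 or 3 and 0.0732 and 0.0798 without S34F library 1 or 2. At chr1:182357886 on the minus strand the leading exon, with an intron of 2928 nt, held 97.5%, 96.3% and 94.2% in wild type against 91.7%, 94.8% and 80.5% in S34F. The groups overlap there, and the adjusted p of 0.0406 became 0.0836 and 0.104 without wild-type library 1 or 2 and 0.104 and 0.296 without S34F library 1 or 3. At chr6:160113896 on the minus strand the exon with an intron of 281 nt held 100%, 99.6% and 100% in wild type against 98.5%, 97.6% and 98.4% in S34F (edgeR adjusted p = 0.0471). Its adjusted p was 0.127, 0.0504 and 0.109 without wild-type library 1, 2 or 3 and 0.0885 and 0.107 without S34F library 1 or 2. The second first exon there, at 160148297, had 13 pooled reads, of which 1 was from wild type, so this acceptor too met the minimum through S34F. For the chromosome 18 and chromosome 6 acceptors no value was obtained without S34F library 3.

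Among comparisons that were not called, the 10 with the largest differences and no overlap between groups were also examined, a choice made after their values were seen. The largest was at chr1:119689575 on the plus strand, which has 2 first exons, of which only the farther was tested. The farther exon, with an intron of 6159 nt from 119683417, held 40.7%, 32.1% and 50% in wild type against 67.3%, 60.5% and 62.3% in S34F (log2 odds change 1.40, standard error 0.47, edgeR adjusted p = 0.0755). Each library had only 24 to 54 first-exon reads there. Reads from unannotated junctions into the nearer exon came to 25.4% of those leaving it. Those that ran from the farther first exon had 6, 6 and 6 reads in wild type against 1, 1 and 1 in S34F. How many of the counted reads came from internal use was not tested.

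The largest fall among these was at chr7:142988632 on the plus strand. The exon with an intron of 3010 nt from 142985623 held 67.1%, 75.6% and 73.8% in wild type against 45.5%, 50% and 55.0% in S34F (log2 odds change -1.32, standard error 0.41, edgeR adjusted p = 0.0591). The alternative at 142986750 had 0.797 ± 0.23 CPM in wild type and 1.51 ± 0.21 in S34F. The leader held the larger part in wild type, and both exons were near equal in S34F. At chr21:27113883 on the plus strand the exon with an intron of 6502 nt from 27107382 held 23.7%, 34.2% and 24.0% in wild type against 40.4%, 50% and 53.6% in S34F (adjusted p = 0.0838).

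The others in this set had adjusted p-values between 0.138 and 0.433. The best covered was at chr11:118958964 on the plus strand, where 129 to 492 first-exon reads were counted per library. Its nearest exon, with an intron of 176 nt from 118958789, held 33.8%, 37.7% and 26.4% in wild type against 50.7%, 52.4% and 39.2% in S34F (log2 odds change 0.87, standard error 0.35, adjusted p = 0.138). In CPM that exon had 2.91, 3.45 and 1.75 in wild type against 6.27, 7.14 and 4.91 in S34F. The farthest exon, from 118955777, had 5.26 ± 0.49 and 6.47 ± 0.88. At chr11:61675779 on the minus strand the farther exon went from 62.3% ± 2.26 to 78.7% ± 9.44 (adjusted p = 0.160). At chr1:90309196 on the plus strand the exon from 90287745 went from 75.9% ± 5.03 to 59.3% ± 12 (adjusted p = 0.175). None of these passed the test.

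**Figure D4:**
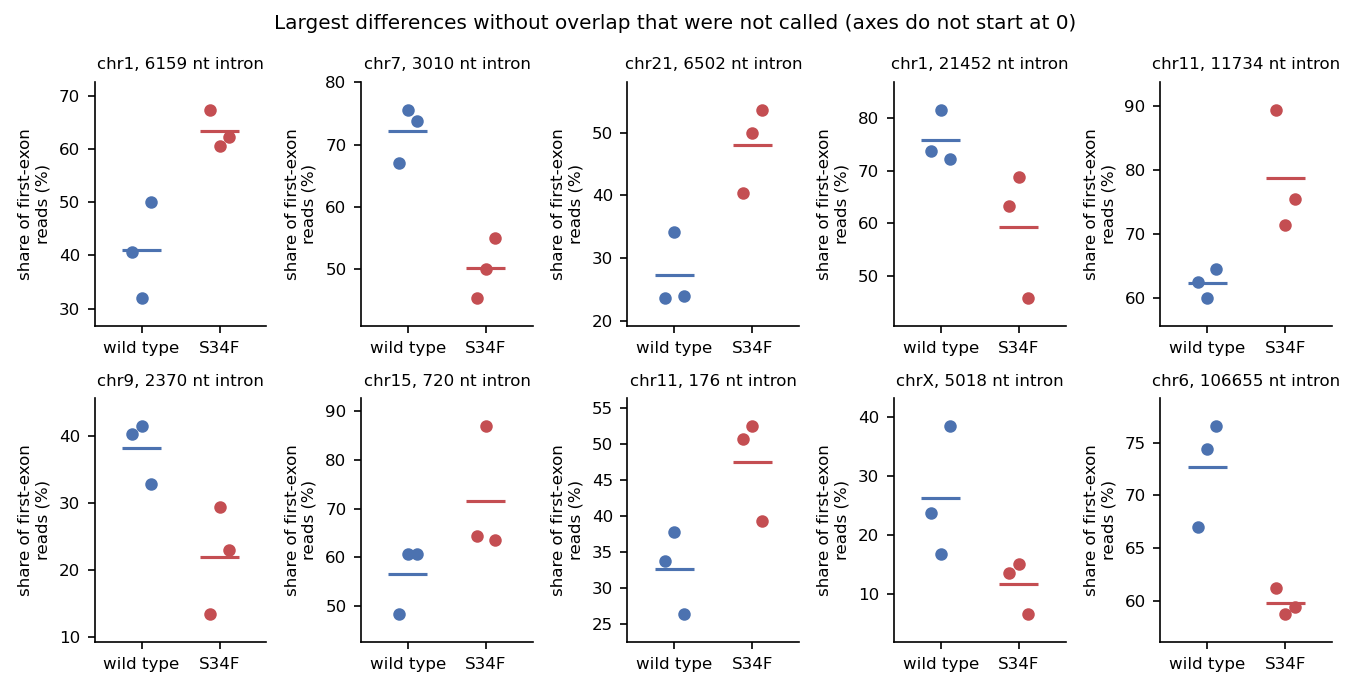
Share of first-exon reads, in percent, in each of the 6 libraries for the 10 largest differences without overlap that were not called. Points are libraries and bars are group means, and the libraries of each group spread over several points within most panels.

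The abundance of each first-exon junction was tested as well, since a share cannot tell which exon gained or lost reads. Of the 1412 member junctions 845 passed the filter on low counts, and 2 of them were called by edgeR (0.237%), against 0.203% of all 112956 annotated junctions tested. The single rise (0.118%, against 0.0832% of all junctions) was the chromosome X exon described above, and the single fall (0.118%, against 0.120%) was on chromosome 19. An unadjusted p under 0.05 was found for 114 member junctions, 13.5%, against 13.7% of all junctions. The members' rate was thus near that of annotated junctions in general.

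The fall was at chr19:38800284 on the minus strand, 1 of the 3 acceptors with 7 first exons. Several of its sites lie close together, such as 38806356 and 38806362. Whether those belong to 1 first exon was not tested. The exon with an intron of 6073 nt from 38806356 had 7.0, 6.74 and 5.83 CPM in wild type against 3.54, 2.71 and 2.78 in S34F. The log2 fold change was -1.14 with a standard error of 0.20 (edgeR adjusted p = 0.0467). All 7 first exons had a lower mean in S34F, and the acceptor's total went from 19.9, 19.4 and 19.9 to 11.7, 11.5 and 10.1 CPM. No share at this acceptor passed the test. This exon held 33.1% ± 3.28 in wild type and 27.1% ± 3.32 in S34F, and the one at 38806508 held 24.1% ± 1.14 and 32.7% ± 5.37, with every S34F library above every wild-type library (edgeR adjusted p = 0.293). The leader by mean share thus differed without a call. The abundance call was lost when any library was left out. The adjusted p was 0.0716, 0.223 and 0.130 without wild-type library 1, 2 or 3, and 0.0861, 0.0577 and 0.163 without S34F library 1, 2 or 3.

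**Figure D5:**
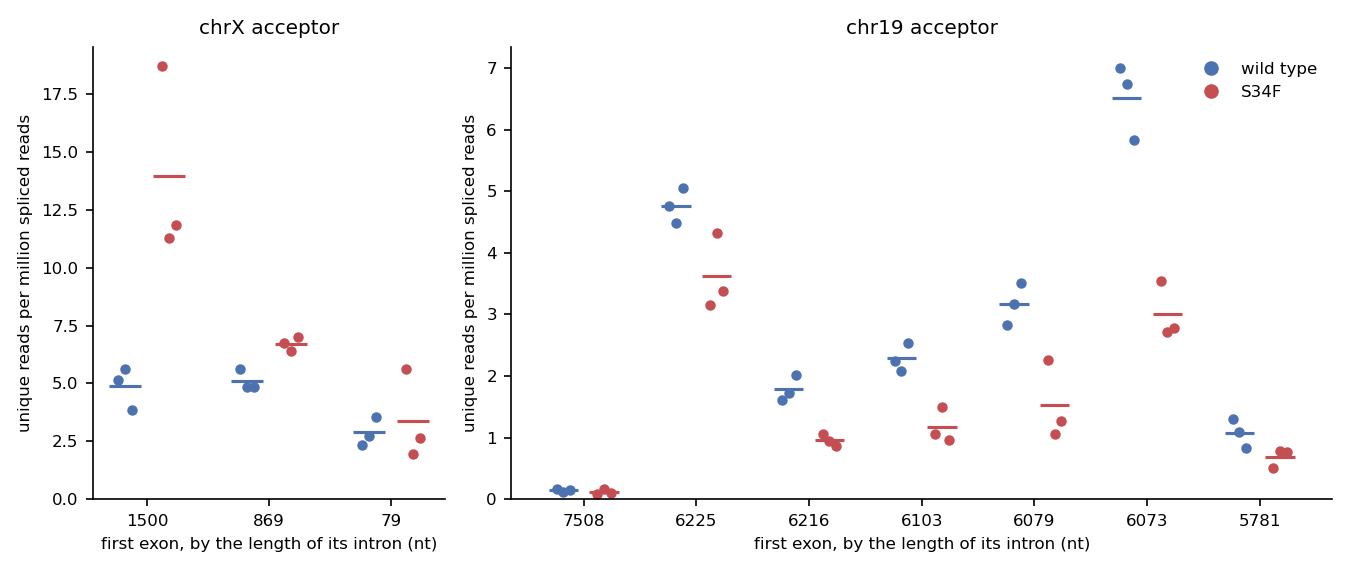
CPM of every first exon at the acceptors on chromosomes X and 19 that held the 2 called abundance changes, with points for libraries and bars for group means. On chromosome X 1 exon rises above its neighbours, and on chromosome 19 the bars of all 7 exons are lower in S34F.

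No share was called at the acceptors with the most first exons, which does not show those shares to be steady. The acceptor described just above, whose total was lower in S34F, is among them. At chr20:57470666 on the plus strand 7 first exons reached 10 pooled reads and 11 more did not. The leader, at 57466921, held 94.8%, 96.5% and 96.4% in wild type against 97.0%, 97.8% and 96.3% in S34F. The other 6 exons had mean shares of 0.0976% to 1.80%. At chr6:31619554 on the minus strand none of the 7 sites dominated. All of them lay between 31619642 and 31620289. Whether they are separate starts or alternative 5′ splice sites of 1 first exon was not tested. The exon at 31620176 held 28.4%, 45.3% and 38.9% in wild type against 34.5%, 35.4% and 33.2% in S34F, and the exon at 31620200 held 38.8%, 33.1% and 34.3% against 36.7%, 32.7% and 42.2%. These libraries overlap throughout. The leader at chr22:20106535 on the plus strand had 93.4% and 92.8% by group mean, and that at chr7:141438923 on the plus strand had 67.5% and 63.0%, both with overlapping libraries. At both acceptors at least 1 other first exon had a higher share in every S34F library than in any wild-type library.

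The 5 acceptors with the most reads each had 1 dominant first exon. At chr6:74229780 on the minus strand the leader, at 74230722, held 99.8%, 99.9% and 99.7% in wild type against 99.8%, 99.8% and 99.7% in S34F. At chr3:12881742 on the minus strand the leader held 99.9% in each of the 6 libraries, and the other exon 0.0501% to 0.0965%. Reads of unannotated junctions that end just upstream of that other exon came to 75.4% of the reads leaving it. How much of its share was internal use was not tested. At chr6:34392999 on the minus strand the leader held 97.3% to 97.9% in wild type and 95.8% to 98.3% in S34F. The leader at chr11:75111737 on the plus strand held 99.9% and 99.8% by group mean. At chr2:55459943 on the plus strand the nearer exon held 99.8% in both groups. At these depths a minor share of under 0.1% could still be measured, and no genotype difference was called at any of the 5.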

How the data were processed

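The authors' deposited tables gave, for each splice junction of 1 library, raw counts of uniquely mapped and of multi-mapped reads, per the file layout of the aligner's junction output. STAR and hg19 are named per the submitters' processing notes. The aligner version, annotation and filters are not given in the sources used here. Total RNA was selected for poly(A) and sequenced as paired ends, per the labels' protocols. Positions are 1-based hg19 intron ends, and no hg19 genome or gene annotation was used here, so genes, exon annotation and sequences are not printed. Unique reads were used, and junctions that a library did not list were given 0 reads. Shares were computed over all first-exon reads of an acceptor, and CPM per 1000000 unique spliced reads.

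Tests were run in R 4.3.3 with edgeR 4.0.16 (legacy quasi-likelihood, robust) on the 2 counts of each comparison, with an intercept per library, and on junction counts with TMM factors and the default low-count filter. limma 3.58.1 and DESeq2 1.42.0 gave alternatives. The scripts were tested on simulated data, with 100 changes of each size placed among all 8851 comparisons. An adjusted p under 0.05 was found for 4% of changes of 1 log2 odds and 46% of changes of 2. For abundance it was found for 33.0% of changes of 1 log2 unit and 88.3% of changes of 2. Members and lists were chosen with earlier results of these data known. Named comparisons were the called ones, then the smallest p up to 10 in all, the 5 acceptors with the most first exons and the 5 with the most reads. The replicate numbers were checked as pairs: same-numbered libraries' deviations correlated at -0.02, 0.01 and 0.03, so they were not used as pairs. No 2 libraries held the same counts. Intervals and limits cover counting error only.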

Additional observations from a re-analysis of the deposited data

Results flagged for a closer look

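Reads outside the unique counts of annotated junctions were of 2 kinds. Multi-mapped reads equalled 14.1% to 14.8% of the first-exon reads at the kept acceptors in wild type and 14.3% to 15.1% in S34F. When they were added, 1003 acceptors met the conditions, 456 of which did not on unique reads.

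Unannotated junctions with at least 10 pooled reads entered the kept acceptors in 284 cases, above the 3 reads that a count of 0 allows. Of these, 227 started at an unannotated 5′ splice site without an annotated acceptor upstream and held 9722 reads, 28 started at a site annotated in another junction, and 29 at an unannotated site with an annotated acceptor upstream. Unannotated reads made up 0.973%, 0.921% and 0.918% of the reads into these acceptors in wild type against 1.07%, 0.964% and 1.18% in S34F.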

How the results depend on the processing

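Over 24 alternatives for first-exon choice and 11 for abundance, each left-out library counted as 1, no named comparison changed direction where a value was obtained. With a call defined by adjusted p and the minimum difference, named comparisons kept their status in 363 cases, gained a call in 2 and lost one in 24; a comparison that was never called can lose its adjusted p under 0.05 without being counted here. The count of called first-exon comparisons, 2, became 1 with DESeq2, 0 with limma (79 at an unadjusted p under 0.05), 1 with at least 50 reads per library, 7 without a filter on low counts, 5 with all annotated junctions as denominator, 0 with sites over 2000 nt apart (48 unadjusted), 1 with first exons fitted alone, 0 at a minimum difference of 20 points and 10 at none. It ranged from 0 to 5 when 1 library was left out: 5 without wild-type library 1 or 2, 1 without wild-type library 3, 2 without S34F library 1 and 0 without S34F library 2 or 3. It was 3 with the newer edgeR dispersion, with multi-mapped reads or with an upstream window of 1000 nt. Of 3 alternatives chosen after seeing the data, counting all reads leaving each site gave 1, keeping only the 406 acceptors whose sites all had under 10% unannotated upstream reads gave 2, and requiring at least 5 reads on both sides in each genotype gave 1. The count of called abundance changes among member junctions, 2, became 11 with DESeq2 and 41 without a filter, and ranged from 0 to 3 with 1 library left out. Dropping the filter also changes how many junctions are tested. The shares of all junctions called under these alternatives are not given here, so the counts are not read as a trait of the members. The chromosome 7 comparison was called with the newer dispersion (adjusted p = 0.0469) and without wild-type library 1 (0.0333).

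The replicate numbers did not pair the samples. With the replicate block the counts were 1 first-exon choice and 1 abundance change, the chromosome X choice had an adjusted p of 0.0573, and 5 of the 8 smaller changes kept an adjusted p under 0.05. Depth limits the rest: the median standard error of a log2 odds change was 0.55, and 423 comparisons had under 50 reads in their lowest library.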

Other observations

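At some kept acceptors an unannotated 5′ splice site carried more reads than an annotated first exon. At chr1:2327222 on the plus strand the unannotated site at 2324795 had 1153 pooled reads, or 5.31, 6.66 and 6.66 CPM in wild type against 10.4, 7.08 and 8.94 in S34F. Its S34F libraries were all higher, and the annotated first exon at 2324671 had 50 reads leaving it in all. Unannotated junctions from another first exon of this acceptor that end just upstream of 2324671 held more reads than left that site. How far 2324671 acts as a first exon was not tested. At chr10:43892039 on the minus strand the unannotated site at 43904578 had 1070 pooled reads, with 6.80, 8.18 and 6.91 CPM in wild type against 6.09, 7.08 and 7.33 in S34F, which overlap. These sites were in no test of shares.

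At chr3:28304781 on the plus strand the annotated first exon at 28295257 was reached by unannotated junctions whose reads, 278 in all, equalled 63.5% of the reads leaving it. They were 59, 23 and 27 in wild type against 43, 35 and 91 in S34F.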
